A study of Homo sapiens with 26 samples.

Results

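The 43 genes described here are a list of DNA replication and S phase genes, chosen by name and with earlier results of these data known. They were looked up by symbol among the 26313 gene symbols of the annotation that the authors assembled from their RNA-seq reads, and all 43 were found. The study examined HCT116, a human colorectal cancer cell line. ZBTB24 is a zinc finger protein that binds DNA, and DNMT3B is a DNA methyltransferase. Mutations in either gene cause a syndrome of immunodeficiency, centromeric instability and facial anomalies.

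RNA-seq covered 12 libraries. Of these, 3 came from cells carrying shNT, a short hairpin RNA without a target, and 3 from cells carrying shZBTB24, a hairpin against ZBTB24. Another 2 came from lines that express the FLAG tag alone (FLAG-only) and 2 from lines that express FLAG-ZBTB24. The last pair was 1 library of 3BKO, an HCT116 line with a genetic knockout of DNMT3B, and 1 of wild type (WT) HCT116 with neither a tag nor a hairpin. ChIP-seq with the FLAG antibody covered 2 FLAG-only, 3 FLAG-ZBTB24 and 2 FLAG-DNMT3B libraries, each with an input library. The hairpin and FLAG lines were all made by lentiviral infection and puromycin selection. Each FLAG line was grown from a single cell, so differences between clones stay with those groups. The labels do not state whether the hairpin replicates were separate cultures, so the p-values deposited for them rest on a spread that may be technical.

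Replication begins when the MCM2-7 helicase is loaded onto origins in G1, with the help of CDC6 and CDT1. At the start of S phase the helicase is switched on by MCM10, CDC45 and the GINS complex. Polymerases with their primase then copy the strands, held to the template by PCNA, a sliding clamp that the RFC complex loads, while FEN1 trims the fragments of the lagging strand. Many of these genes are transcribed together at the G1/S transition by E2F factors, which are freed when cyclin E and other cyclins inactivate RB1.

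RefSeq promoter sequences from 250 bases before to 50 bases after the start (build GRCh38.p14) were on hand for 34 of the 43 genes, among them 12 of the 16 that the knockdown table lists. The search used 4 spellings of the E2F site, TTTCCCGC, TTTCGCGC, TTTGCCGC and TTTGGCGC, on both strands, and the spellings can overlap each other in one place. At least 1 of them stood in 18 of the 34 promoters (52.9%), beside 3.99% of the 27305 genes in that table. Of the genes that the knockdown table lists, 8 of 12 held one, and among those not listed there 10 of 22 did. The stretches below show the site in genes of 4 roles, and capitals mark the letters matched.

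GINS2, helicase activation: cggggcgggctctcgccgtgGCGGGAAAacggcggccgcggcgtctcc

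PCNA, sliding clamp: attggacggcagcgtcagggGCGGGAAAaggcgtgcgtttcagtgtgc

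MCM2, helicase: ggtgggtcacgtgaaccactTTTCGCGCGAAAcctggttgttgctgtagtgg

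MCM6, helicase: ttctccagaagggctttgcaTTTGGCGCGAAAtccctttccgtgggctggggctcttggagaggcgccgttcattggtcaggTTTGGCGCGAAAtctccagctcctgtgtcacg

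EXO1, an exonuclease of mismatch repair and fork processing: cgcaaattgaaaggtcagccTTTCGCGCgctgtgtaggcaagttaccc

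The stretches lie within these GRCh38.p14 promoter windows: GINS2 in chr16:85688905-85689204 (minus strand), PCNA in chr20:5126573-5126872 (minus strand), MCM2 in chr3:127598161-127598460 (plus strand), MCM6 in chr2:135876394-135876693 (minus strand) and EXO1 in chr1:241847954-241848253 (plus strand). The match in GINS2 lay 31 bases before the start and the one in PCNA 59 bases before it. In MCM2 and MCM6 forward and reverse matches overlapped, so a single stretch of 12 capitals holds 2 of them, and MCM6 had 2 such stretches. The match in EXO1 lay 4 bases after the start. The CCAAT box, the motif of the factor NF-Y, was found in 61.8% of the 34 promoters and in 39.7% of all genes. TTTGAA, the CHR element of genes that peak in G2 and mitosis, was found in 8.82% of the 34 and in 18.2% of all genes. The letters CAGGACCT, a core of the ZBTB24 motif, stood in 1 of the 34 (MCM7), which is 2.94% beside 1.93% of all genes. MCM7 had no FLAG-ZBTB24 peak at its promoter. The replication genes that had such a peak, MCM4, FAM111B and ATAD2, had no sequence on hand, so their promoters were not searched for any of these motifs. These are matches of letters within short windows and not measured binding.

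The first comparison was of shZBTB24 with shNT cells. The authors' deposited table of this comparison holds 1965 loci, each with 1 pooled FPKM value per group (fragments scaled to transcript length and library size), a log2 ratio whose size is above 0.50, and a p and a q. Absence of a gene from the table can mean no change, removal by a filter or no test, and which of these applies cannot be told. No value per library was used, so no error between libraries and no sequencing depth can be given. A gene is said to have risen or fallen where the authors' q was under 0.05. ZBTB24 itself is not listed in this table, so the table does not check the knockdown.

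After ZBTB24 knockdown 16 of the 43 replication genes were listed, which is 37.2%, and all 16 had the higher value in shZBTB24. Of all gene symbols in the annotation 4.44% were listed as higher, and of the listed loci 55% were higher. By the authors' q, 7 of the 16 rose: FAM111B, MCM4, GINS2, FEN1, MCM10, PCNA and MCM5. That is 16.3% of the 43, beside 0.984% of all gene symbols, and 43.8% of the 16, beside 22.2% of the listed loci that were higher. Fold differences of the 16 ran from 1.43 to 6.52, and their median log2 ratio was 0.92, beside 0.79 over the 1081 higher loci. The list was chosen with this result known, so these shares are a description. In bulk RNA a larger share of cells in S phase and more of these transcripts per cell cannot be told apart.

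**Figure D1:**
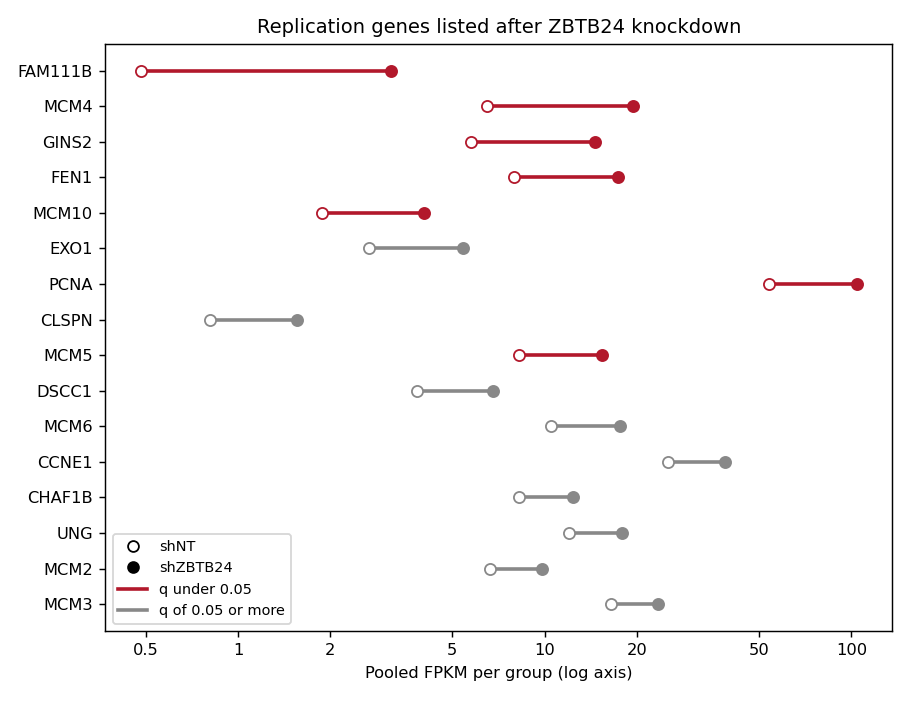
Pooled FPKM of the 16 listed replication genes in shNT (open circles) and shZBTB24 (filled circles) on a log axis, with 1 row per gene in the order of the log2 ratio and lines in red where q was under 0.05. Every filled circle lies to the right of its open circle, from FAM111B at the top (6.52-fold) to MCM3 at the bottom (1.43-fold), and the values have no error bars because only 1 pooled value per group was given.

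The MCM2-7 helicase was the role with the most genes listed, at 5 of 6 subunits. MCM4 rose from 6.46 FPKM in shNT to 19.5 in shZBTB24, a log2 ratio of 1.59 with q = 0.00493 in the authors' deposited table. MCM5 rose from 8.27 to 15.3 FPKM, a log2 ratio of 0.89 with q = 0.0427 there. The other listed subunits had higher values that missed the threshold. MCM6 had 10.5 FPKM in shNT and 17.6 in shZBTB24 (q = 0.0698 in the authors' deposited table). MCM2 had 6.64 and 9.77 (q = 0.303), and MCM3 had 16.4 and 23.5 (q = 0.298), in the same deposited table of the authors. MCM7, the remaining subunit, is not listed, and its gene overlaps AP4M1 on the opposite strand. The 5 listed subunits summed to 48.3 FPKM in shNT and 85.7 in shZBTB24. Their levels spanned 2.54-fold in shNT and 2.40-fold in shZBTB24, so the subunits of this one complex kept a spread of similar size while MCM4 went from the lowest of the 5 to above MCM6.

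Of the 6 genes that turn the loaded helicase into a moving one, 2 were listed and both rose. GINS2, a subunit of the GINS complex, had 5.73 FPKM in shNT and 14.6 in shZBTB24, 2.55-fold higher with q = 0.0164 in the authors' deposited table. MCM10, which bridges the helicase and the polymerase that primes DNA, went from 1.88 to 4.05 FPKM, 2.15-fold higher with q = 0.0206 there. GINS1, GINS3, GINS4 and CDC45 are not listed. Neither of the loading factors CDC6 and CDT1 is listed.

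On the lagging strand, PCNA was the most abundant listed member in both groups. Its FPKM was 53.9 in shNT and 104 in shZBTB24, 1.93-fold higher with q = 0.0221 in the authors' deposited table. PCNA alone made up 35.7% of the gain in summed FPKM over the 16 genes, which went from 171 to 312. FEN1, the flap nuclease, rose from 7.96 to 17.3 FPKM, 2.18-fold, with q = 0.00493 in the same deposited table of the authors. DSCC1, part of an alternative clamp loader, had 3.84 and 6.76 FPKM (q = 0.20 in the authors' deposited table). None of the loader subunits RFC2, RFC3, RFC4 and RFC5 is listed. PCNA overlaps the antisense gene PCNA-AS1, and no source used here says whether the counting used strand, so reads of the pair may be mixed. The other 15 listed genes overlapped no named gene.

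FAM111B, which encodes a protease-like protein expressed in S phase, had the lowest level in shNT of the 16 genes and the largest ratio. It rose from 0.484 to 3.15 FPKM, a log2 ratio of 2.70 with q = 0.00493, in the authors' deposited table. By absolute log2 ratio it ranked 15 of the 1965 loci, and from the highest ratio down it ranked 12. MCM4 came next among the 16, at rank 131 by absolute log2 ratio and 95 from the highest ratio down. Low levels went with large ratios among the 16 genes (Spearman rho -0.58 across genes), and also among the 1081 higher loci (rho -0.52). Both are descriptions: the genes share the same libraries, and the shNT value enters both axes.

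Members with other roles were listed with higher values that did not pass q under 0.05. EXO1 had 2.68 FPKM in shNT and 5.4 in shZBTB24 (q = 0.0766 in the authors' deposited table). CLSPN, an adaptor of the fork checkpoint, had 0.811 and 1.56 FPKM (q = 0.103, from the authors' deposited table). CCNE1, the cyclin E that drives entry into S phase, had 25.2 and 38.7 FPKM with q = 0.137 in that deposited table of the authors. Those 3 genes thus had values 1.54-fold to 2.02-fold higher with q between 0.0766 and 0.137. CHAF1B, a chromatin assembly subunit, had 8.22 and 12.4 FPKM, and UNG, which removes uracil from DNA, had 12.0 and 17.9. Their q values in the authors' deposited table were 0.271 and 0.20. No polymerase or primase gene (POLA1, POLD3, POLE2, PRIM1) is listed. The same holds for the enzymes of deoxynucleotide supply (RRM1, RRM2, TYMS), for the factors E2F1 and E2F8, for CCNE2, and for the histone mRNA binding protein SLBP.

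Other genes of the same processes were read from 6 further lists, which together hold 114 genes and none of the 43. Of these, 20 were listed in the knockdown table, 18 with higher and 2 with lower values, and their median log2 ratio was 0.74. The authors' deposited table calls 2 of the 114 risen and 0 fallen. Over all gene symbols, 4.44% were listed as higher and 0.984% rose. Among all listed loci that were higher 22.2% rose, a larger share than the 2 of these 18. CDC25A, the phosphatase that activates the kinases of the G1/S transition, rose from 1.40 to 4.22 FPKM (q = 0.00493 in the authors' deposited table). HAT1, which acetylates new histones, rose from 26.7 to 51.9 FPKM (q = 0.00823 in the authors' deposited table). E2F2, an E2F factor of the G1/S transition, had 1.05 FPKM in shNT and 2.07 in shZBTB24 (q = 0.0817 in the authors' deposited table), which did not pass the threshold. The 2 with lower values were CAD, of pyrimidine synthesis, and CHTF18, of the alternative clamp loader, with log2 ratios of -0.62 and -0.57 in the authors' deposited table.

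Genes of mitosis and G2 had lower values where they were listed. Of 39 such genes 12 were listed, all 12 lower, with a median log2 ratio of -0.78; of all gene symbols 3.61% were listed as lower. Of the 884 lower loci 21.8% fell, and of these genes 2 did: CDC20, an activator of the anaphase-promoting complex, from 92.6 to 49.0 FPKM (q = 0.0113 in the authors' deposited table), and UBE2C, a ubiquitin-conjugating enzyme of that complex, from 73.5 to 39.4 (q = 0.0270). The 16 listed members and the 12 listed genes of mitosis and G2 therefore lay on opposite sides of 0 in the same libraries, as the plot of log2 ratios shows. Cell type markers moved too. CDX2, a factor of the intestinal epithelium, rose from 6.90 to 18.8 FPKM, and CDH1, the epithelial cadherin, fell from 46.3 to 23.2, both with q = 0.00493 in the authors' deposited table. The other 10 of the 12 colon epithelial markers and all 15 markers of fibroblasts and blood are not listed there. The part of these markers in the ratios of the replication genes was not tested. In the WT library the epithelial markers KRT8 and CDH1 had 839 and 27.3 FPKM. These values stand in rows of the authors' deposited knockout table whose label, DNMT3BKOshZB, matches no sample. Both genes are listed there as lower, at 297 and 6.10 FPKM (q = 0.672 and 0.267). KRT20, another of the 12 epithelial markers, went the other way. It is listed as higher under the label of the knockout, with 0.558 FPKM in WT and 1.49 in 3BKO (q = 0.965 in the authors' deposited table).

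**Figure D2:**
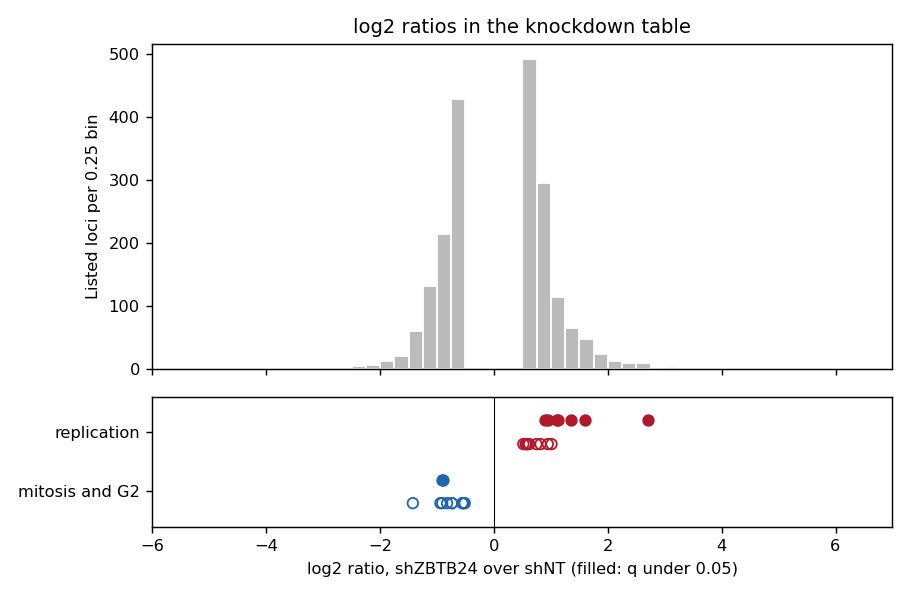
Log2 ratios of shZBTB24 over shNT from the authors' table, with all 1965 listed loci as a histogram in bins of 0.25 (top) and the 16 replication genes and 12 mitosis and G2 genes as points (bottom), filled where q was under 0.05. All 16 replication genes lie between 0.52 and 2.70 and all 12 mitosis and G2 genes lie below 0; the gap around 0 is the authors' fold threshold.

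The second comparison set lines that express FLAG-ZBTB24 against FLAG-only lines. The authors' deposited table holds 1754 loci for it, of which 10 (0.57%) had a q under 0.05. The locus that holds ZBTB24 together with MICAL1 had 17.8 FPKM in FLAG-only and 155 in FLAG-ZBTB24, with q = 0.0192 in the authors' deposited table. Only 1 of the 43 replication genes (2.33%) is listed, beside 7.21% of all gene symbols listed in either direction. It is PRIM1, the catalytic primase subunit, whose assembled locus also holds NACA, so the reads of the pair cannot be told apart. That locus had 643 and 411 FPKM with p = 0.156 and q = 0.956 in the authors' deposited table. No replication gene passed q under 0.05. None of the 16 genes listed after knockdown is listed here in either direction. Being listed does not mean the same in both comparisons. The authors' p was under 0.05 for 174 of these 1754 loci and for 1907 of the 1965 knockdown loci. Of all gene symbols listed as higher after knockdown, 17.5% are listed in the FLAG-ZBTB24 comparison, and of those that rose, 25.1%.

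The third comparison was of 3BKO with WT, with 1 library per group and therefore no replicate check. The 2243 loci that the authors' deposited table gives under the label of the knockout are all higher than WT, with log2 ratios of at least 1. No replication gene is among them (0 of 43), beside 9.08% of all gene symbols. DNMT3B itself is not among them either. Another 1112 loci of that table, all lower than WT, carry the label DNMT3BKOshZB, and whether they belong to the comparison of 3BKO with WT cannot be told from the labels. They hold 5 of the 43 replication genes and DNMT3B, so lower values in 3BKO could not be examined. Of the gene symbols listed as higher after ZBTB24 knockdown, 17% are listed as higher in the knockout. None of the 16 replication genes is. The knockdown comparison lists log2 ratios from 0.50, and only 6 of the 16 genes reached a log2 ratio of 1 there.

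ChIP-seq gave 1 merged list of peaks per factor (hg19), so agreement between libraries could not be examined. Promoter peaks were those with a midpoint no more than 1000 bp from any transcript start of a gene. Of the 6173 FLAG-ZBTB24 peaks, 3 were at promoters of replication genes: MCM4, FAM111B and ATAD2. That is 6.98% of the 43, beside 4.02% of all genes. The share was 7.89% in the 114 other genes of replication, G1/S control and repair, 15.4% in the 39 genes of mitosis and G2, and 7.01% in genes of at least 1 FPKM that stand alone at a locus listed as higher after knockdown. FAM111B and MCM4 are also the pair with the largest ratios after knockdown among the 16 listed genes. ATAD2, a chromatin ATPase with a bromodomain, is not listed in the knockdown table.

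FAM111B (chr11:58874658-58894888, plus strand, hg19) has its peak at chr11:58874660-58874806, with the midpoint 75 bp after the start. The next gene start is 35548 bp away. The peak of MCM4 (chr8:48872763-48890719, plus strand) is 34 bp wide at chr8:48873225-48873258, with the midpoint 478 bp after the start. PRKDC, which encodes the catalytic subunit of DNA-dependent protein kinase, starts 498 bp from that midpoint, so the peak is about as near to either gene. PRKDC is not listed in any of the 3 expression tables. At ATAD2 (chr8:124332091-124408705, minus strand) the peak covers chr8:124409134-124409274, with the midpoint at -499 bp from the start. The authors' scores of these peaks, of a kind that no source used here names, were 7.54 for FAM111B, 6.61 for ATAD2 and 6.15 for MCM4. All 3 are below the median of 8.26 over the 6173 peaks, and MCM4's ranks 5229. With only the peaks that score above that median, no replication gene has a promoter peak, beside 2.11% of all genes. Within 20 kb of a start, 7 of the 43 genes (16.3%) had a ZBTB24 peak, beside 12.5% of all genes. Within 50 kb the shares were 18.6% and 23.8%. No FLAG-ZBTB24 peak is listed on the X chromosome, where POLA1 lies.

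FLAG-DNMT3B showed another pattern, with peaks inside the genes and away from their starts. A body peak was one whose midpoint lay inside a transcript and more than 1000 bp from each of the gene's starts. Such a peak was found in 30 of the 43 replication genes (69.8%), beside 23% of all genes. The part of gene length and expression in this share was not tested, but narrower sets give other shares of genes with such a peak. Among the 18969 genes no shorter and no longer than the members (4606 bp for FEN1 to 303039 bp for POLA1), 30.4% had one. Among 1777 genes with at least 1 FPKM that stand alone at a locus of the knockdown table, 35.1% had one. In the 114 other genes of replication, G1/S control and repair the share was 67.5%, and in the 39 genes of mitosis and G2 it was 66.7%. The replication genes were thus close to the other cell cycle genes. No replication gene had a DNMT3B peak at its promoter, beside 2.46% of all genes.

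**Figure D3:**
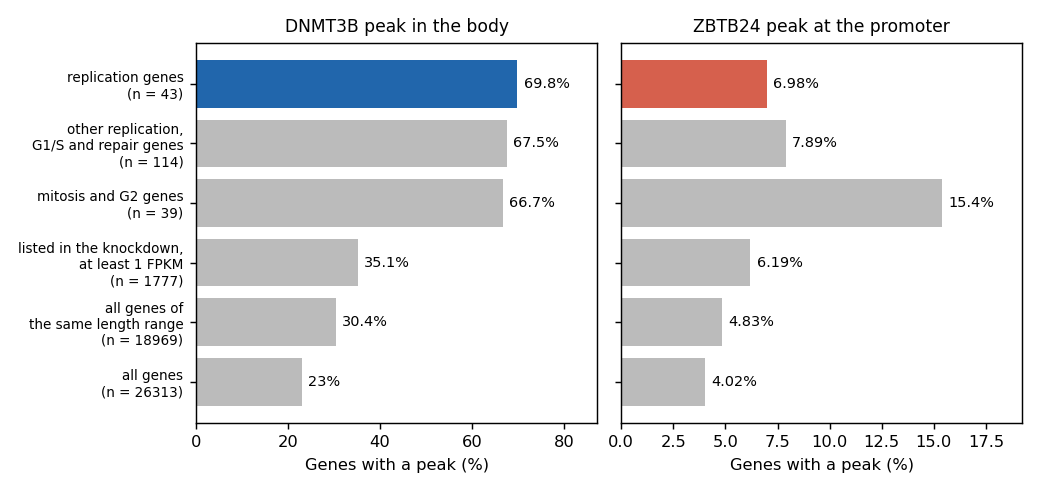
Share of genes (percent, axis from 0) with a FLAG-DNMT3B body peak and with a FLAG-ZBTB24 promoter peak. Shown are the 43 replication genes, the other replication, G1/S and repair genes, the mitosis and G2 genes, and all genes. Also shown are genes of the same length range. A last set holds genes of any kind that stand alone at a locus of the knockdown table, with at least 1 FPKM. The DNMT3B share is 69.8% for the replication genes and 23% for all genes, and the ZBTB24 promoter share is 6.98% and 4.02%.

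DNMT3B body peaks were found in replication genes listed and not listed after ZBTB24 knockdown alike: 12 of the 16 listed (75%), 4 of the 7 that rose (57.1%) and 18 of the 27 not listed (66.7%). Where a body peak was present, peaks covered a median of 32.3% of the gene, beside 16.2% in all genes with one. The median was 26.7% in the other replication, G1/S and repair genes with a body peak and 33.2% in the mitosis and G2 genes with one. By role, the highest share and median coverage among roles of more than 3 genes was that of the helicase genes, of which all 6 had a body peak, with a median coverage of 58.8%. DNMT3B peaks covered 65.9% of MCM2, 61.9% of MCM7, 60.1% of MCM6, 57.4% of MCM3 and 53.3% of MCM5. MCM4, the subunit with the largest ratio after knockdown, was the exception at 7.77%, with 1 peak at its far end. All 3 genes of chromatin supply also had body peaks, with coverage of 64.7% in SLBP, 42.4% in CHAF1A and 32.9% in CHAF1B. PRIM1 had the highest coverage of the 43 genes, 68.4%.

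Coverage differed within other roles. In helicase activation, MCM10 was covered over 42.2% by 6 peaks, while GINS3 had no body peak. Of the loading factors, CDC6 was covered over 50.8% and CDT1 had no body peak. In G1/S control, CCNE1 was covered over 48.8% and E2F1 and E2F8 had no body peak. PCNA and FEN1, which both rose after knockdown, had no body peak, and neither did FAM111B, EXO1, RRM2, RFC2, POLA1, POLE2 and RAD51AP1. ATAD2 had the most body peaks, 8, over 45.7% of its length, and it also has a ZBTB24 promoter peak. The merged peak list does not say how strong a domain is in either library, and with only the DNMT3B peaks above the median score the count was 16 of 43, beside 16.4% of all genes.

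**Figure D4:**
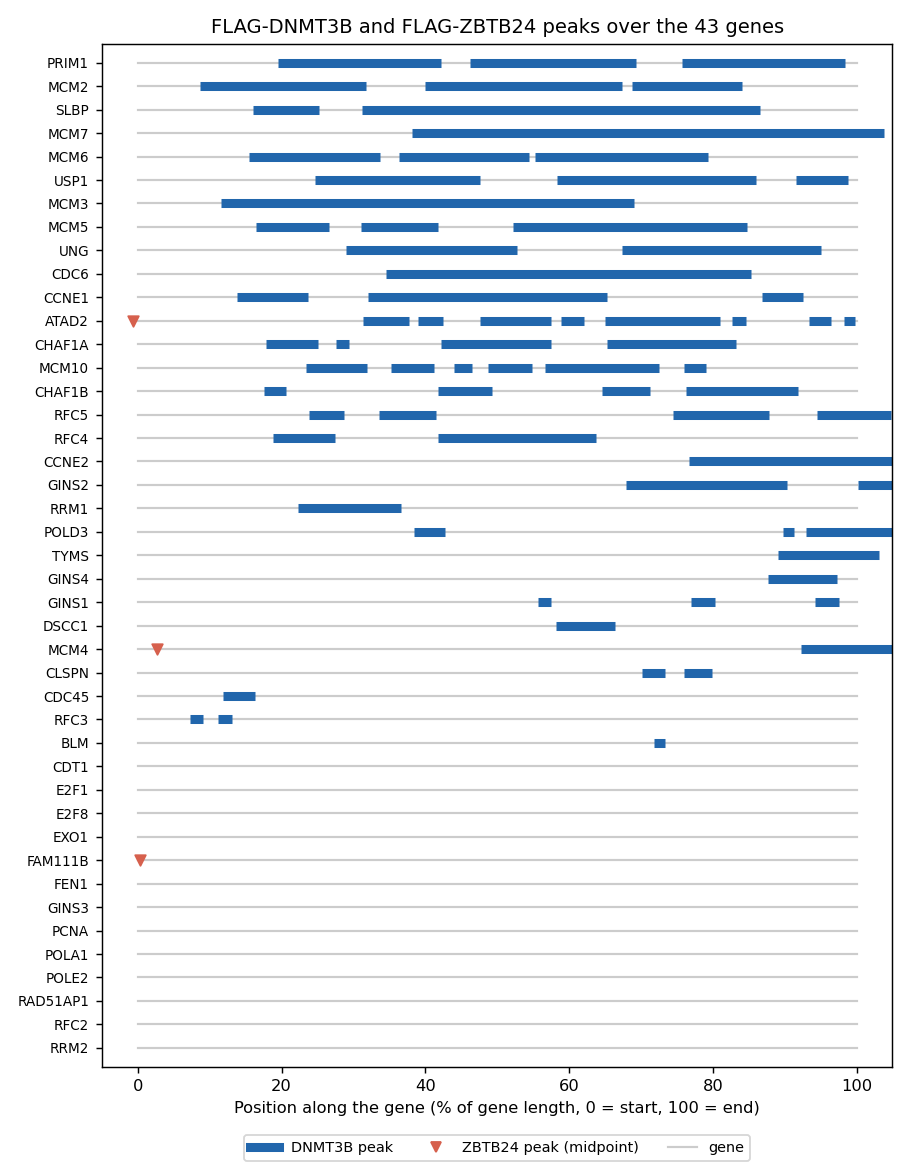
FLAG-DNMT3B peaks (blue bars) and midpoints of FLAG-ZBTB24 promoter peaks (red triangles) along each of the 43 genes, with position as percent of the gene's length from start (0) to end (100) and genes in order of DNMT3B coverage. No blue bar touches a start; the 3 triangles lie at the starts of ATAD2, MCM4 and FAM111B, and 13 genes carry no bar.

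Along the genes, the 72 body peaks had a median position 58.3% of the way from start to end, beside 61.3% for the 15481 body peaks of all genes. Of the 72, 22.2% lay in the first part when each gene is split in 3 equal parts, 34.7% in the middle and 43.1% in the last, beside 20.4%, 36.4% and 43.2% in all genes. Measured from the outermost start of each gene, the nearest body peak edge was 1695 bp away, in CCNE1, followed by 2072 bp in MCM2. Distances of edges to other starts of the same gene were not measured. The position of the peaks along replication genes was thus near that of genes in general.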

How the data were processed

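The 43 genes, their roles and the comparison lists were chosen with earlier results of these data known, and the motifs were chosen last. Per the submitters' processing notes, HISAT2, StringTie, Cufflinks, MACS2 and the hg19 build were used, with no versions stated. The authors deposited 1 pooled FPKM value per group for each locus. Their deposited tables also give a log2 ratio, a p-value and a q-value. Each peak carries 1 score from the authors. Every gene of the list may be named; of other lists, genes with q under 0.05 and the 3 largest absolute log2 ratios per list and table. Genes were matched by symbol, also at loci with several symbols, and coordinates were taken from the deposited annotation. Counts, folds, coverage and motif matches were computed in Python 3.11.15 with pandas 2.3.3, numpy 2.4.6 and scipy 1.17.1, and the counting was tested on simulated data. No test was run, since no values per library were used. A label that matches no sample stands on 1112 loci of the knockout table, which were left out of the knockout comparison and are described apart. Alternatives were other q thresholds, FPKM minimums, pseudocounts, windows, peak scores and transcript sets. The values of 1 gene of the comparison lists are not reported here.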

Additional observations from a re-analysis of the deposited data

How the results depend on the processing

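The count of 7 replication genes that rose after ZBTB24 knockdown became 16 with the authors' unadjusted p under 0.05 and also 16 with p adjusted over the listed loci alone; the table was selected on p, since 1907 of its 1965 loci have p under 0.05. With only peaks above the median score, promoter peaks of ZBTB24 went from 3 genes to 0 and body peaks of DNMT3B from 30 to 16. That setting counts fewer peaks for every gene. Over all genes the shares went from 4.02% to 2.11% for ZBTB24 and from 23% to 16.4% for DNMT3B. The other 22 alternative values stayed near the first ones: 9 genes at q under 0.10, 7 with at least 1 FPKM or at loci with 1 symbol, and 3 and 30 genes with windows of 500 or 2000 bp, any overlap or reference transcripts. The FPKM and symbol settings could not change a value, because all 16 listed genes meet both of them. Their median log2 ratio of 0.92 was 0.75 with a pseudocount of 1 and 0.88 with 0.1. For FLAG-ZBTB24 and 3BKO the counts were 0 under each alternative run, and for FLAG-ZBTB24 also 0 at an unadjusted p under 0.05. These counts could not have differed. No replication gene is listed as higher in 3BKO, and FLAG-ZBTB24 lists only PRIM1, with p = 0.156 in the authors' deposited table. No paired analysis was possible because the tables give 1 pooled value per group, and leaving out a replicate was not run for the same reason. Medians for FLAG-ZBTB24 (1 locus) and 3BKO (no locus) were not run. Depth is unknown.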

Other observations

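In the knockout table, 1112 loci stand under DNMT3BKOshZB, a label that matches no sample given here, and all are lower than in the WT library. They hold 5 of the 43 replication genes (11.6%), beside 4.5% of all gene symbols, and none of the 5 has q under 0.05. The same loci hold 10 of the 114 other genes of replication, G1/S control and repair and 5 of the 12 colon epithelial markers, and the part of the markers in these values was not tested. CCNE2 had 14.6 FPKM in WT and 3.42 under that label (q = 0.947 in the authors' deposited table). ATAD2 had 40.6 and 14.7 FPKM, with p = 0.0477 and q = 0.418 in the authors' deposited table. MCM4 had 59.6 and 22.4 FPKM, RFC5 had 41.7 and 19.9, and BLM had 10.5 and 5.14. Their q values in the authors' deposited table were 0.459, 0.839 and 0.747. DNMT3B itself is among these loci, at 21.1 FPKM in WT and 6.46 under the label (q = 0.676 in the authors' deposited table).

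Of the 5, MCM4, CCNE2 and ATAD2 lie on chromosome 8, which holds 5 of the 43 genes. On that chromosome 44.4% of the loci in the knockout table carry the unmatched label, beside 33.1% of the table as a whole.

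MCM4 was 9.21 times higher in the WT library of the knockout table than in the pooled shNT value of the knockdown table. Over the 506 loci in both tables with at least 1 FPKM in shNT, the median of that ratio was 0.645, with quartiles of 0.310 and 1.22. Over the 197 of these loci that carry the label DNMT3BKOshZB, as MCM4 does, it was 1.04. Each table has its own normalization, so this ratio sets values from separate scales side by side.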
